A study of Mus musculus with 12 samples.

Results

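Acod1, Nos2, Arg1, Arg2, Ass1, Gpr84, Slc7a2 and Gch1 are 8 genes through which activated macrophages and other cells handle itaconate, nitric oxide and arginine. They were read by symbol from a table of 46603 genes, and all 8 had a row. The table covers 12 libraries of poly-A RNA from mouse ileum and synovium, in 4 groups of 3: TNFdARE ileum, WT ileum, TNFdARE synovium and WT synovium. In TNFdARE mice Tnf lacks its AU-rich element, which otherwise limits how stable its messenger RNA is and how much is translated, and inflammation of ileum and joints is known in them. The WT mice were their littermates. The deletion is in the germ line, so that no cell type of these mice is spared. No other allele, agent or treatment is named for any group, and the labels give no age or sex and do not tie the ileum and synovium samples to shared animals. The genes were chosen by their measured genotype differences in these libraries, counts of TNFdARE against WT in each tissue, so their differences between TNFdARE and WT are described here without a p-value. Differences between ileum and synovium, and those of other genes of the same pathways, are tested.

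Acod1 makes itaconate from cis-aconitate in the mitochondria of activated macrophages, and itaconate slows succinate dehydrogenase. Nos2, the inducible nitric oxide synthase, oxidises arginine to nitric oxide and citrulline with the cofactor tetrahydrobiopterin, whose synthesis starts with Gch1. Ass1 begins the return of citrulline to arginine, Slc7a2 carries arginine into the cell, and the arginases Arg1 and Arg2 compete for arginine and make ornithine and urea. Gpr84 is a receptor for medium-chain fatty acids on myeloid cells.

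On the GRCm38 build, Acod1 (ENSMUSG00000022126) lies on chromosome 14 from 103046977 to 103056573 on the plus strand, and Gch1 (ENSMUSG00000037580) on chromosome 14 from 47153895 to 47189413 on the minus strand. Nos2 (ENSMUSG00000020826) lies on chromosome 11 from 78920787 to 78960254, plus strand, and Ass1 (ENSMUSG00000076441) on chromosome 2 from 31470207 to 31520672, plus strand. Arg1 (ENSMUSG00000019987) lies on chromosome 10 from 24915221 to 24927484, minus strand, and Arg2 (ENSMUSG00000021125) on chromosome 12 from 79130777 to 79156301, plus strand. Gpr84 (ENSMUSG00000063234) lies on chromosome 15 from 103308235 to 103310612, minus strand, and Slc7a2 (ENSMUSG00000031596) on chromosome 8 from 40862396 to 40922308, plus strand. All are annotated as protein coding. Arg2 shares 285 of its 1428 exonic bases with Vti1b on the other strand, and Gpr84 shares 681 of its 1725 exonic bases with the antisense gene Gm49482. The libraries keep strand, but whether the counting used it is not given in the sources used here, so reads in these stretches cannot be assigned with certainty.

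RefSeq promoter windows on GRCm38.p6 matched 4 of the 8 genes: Acod1, Gpr84, Ass1 and Gch1. The stretches before the annotated starts of Acod1, the itaconate gene, and Gch1, the gene of the nitric oxide cofactor, are shown because these genes open the itaconate and the tetrahydrobiopterin routes. The Acod1 stretch is chr14:103046762-103046976 on the plus strand and holds, in capitals, GGAAATTCC, a short form of the site bound by NF-kB, 50 bases before the start. The Gch1 stretch is chr14:47189414-47189663 on the minus strand and holds, in capitals, TGACGCAA, which resembles a cAMP response element, 88 bases before the start, and CCAAT, 70 bases before it.
Acod1: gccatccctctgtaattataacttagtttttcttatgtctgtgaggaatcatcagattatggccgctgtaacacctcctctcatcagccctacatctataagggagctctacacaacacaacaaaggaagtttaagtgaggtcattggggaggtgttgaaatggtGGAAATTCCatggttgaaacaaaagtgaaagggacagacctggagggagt
Gch1: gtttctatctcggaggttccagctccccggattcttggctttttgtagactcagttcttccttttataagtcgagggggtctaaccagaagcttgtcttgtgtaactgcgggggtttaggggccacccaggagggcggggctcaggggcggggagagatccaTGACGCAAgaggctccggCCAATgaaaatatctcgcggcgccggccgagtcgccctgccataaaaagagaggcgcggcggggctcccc
Searched on both strands of all 32851 promoter windows, GGAAATTCC occurred in 0.317%, TGACGCAA in 0.490% and CCAAT in 37.4%. A looser form of the NF-kB site, also searched, occurred in 50.8% and was found in the windows of Acod1, Ass1 and Gch1. Neither TTCNNNGAA (8.3% of windows), a site of STAT factors, nor the interferon response element (3.44%) was found in any of the 4. CCAAT also occurs on the other strand of the Acod1 window, and TATAAA (13.6%) in the windows of Acod1 and Gch1. None of the capitals overlap another of these matches in the stretches shown. These letters were chosen after the windows had been read, and a match is a description, not a bound site.

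Libraries held 14267834 to 16224402 counts. On these totals, before correction by TMM, 1 count was worth between 0.0616 and 0.0701 CPM, or counts per 1000000. A gene without counts may have had up to 3 of them, or 0.185 to 0.21 CPM on the same totals. All other CPM use library totals corrected by TMM factors of 0.919 to 1.07, which shift these bounds. For example, 1 count of Slc6a14 in TNFdARE synovium replicate 3 was 0.0579 CPM. Intervals cover counting error only. Tnf, the modified gene, was at 17.2 to 82.7 CPM in TNFdARE ileum, against 1.39 to 2.63 CPM in WT ileum (log2 fold change 4.70 ± 0.68 SE). In the synovium Tnf was at 28.3 to 38.4 CPM in TNFdARE mice, against 1.89 to 2.15 CPM in WT mice (4.06 ± 0.15). The tissue labels fitted the markers: 4 epithelial genes summed to 7140 to 10000 CPM in ileum libraries and to 8.78 to 24.4 CPM in synovium libraries, and 6 fibroblast genes to 867 to 1590 and to 38500 to 78600 CPM. Skeletal muscle genes summed to 1310 to 5250 CPM in TNFdARE synovium, against 8060 to 14700 CPM in WT synovium, so that muscle RNA was part of these dissections and moved with the genotype.

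Acod1 and Gpr84 were nearly absent from WT ileum and present in every TNFdARE ileum library. Acod1 had 135, 5.07 and 38.4 CPM in TNFdARE ileum replicates 1, 2 and 3, against 0.139, 0 and 0 CPM in WT ileum, where the 3 libraries together held 2 counts. Gpr84 had 17.6, 2.82 and 10.7 CPM in TNFdARE ileum, against 0.208, 0 and 0 CPM in WT ileum, where 3 counts were found in all. For both genes replicate 1 was the highest and replicate 2 the lowest of the TNFdARE ileum libraries, and the groups did not overlap. Because WT ileum held so few counts, the difference is given as a ratio of summed counts with its exact 95% interval: 1320 for Acod1 (365 to 10900) and 150 for Gpr84 (51.2 to 732). Here and below such intervals leave out the spread between libraries. The fitted log2 fold changes were 10.07 ± 1.97 and 7.04 ± 1.16, and they depend on the prior count that the fit adds.

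In the synovium the same genes were already detected in every WT library, and the difference was smaller. Acod1 had 12.5, 8.01 and 10.7 CPM in TNFdARE synovium, against 2.36, 1.5 and 1.63 CPM in WT synovium, a log2 fold change of 2.53 ± 0.25. Gpr84 had 5.51, 5.36 and 6.95 CPM in TNFdARE synovium, against 0.762, 2.34 and 1.5 CPM in WT synovium, a log2 fold change of 1.97 ± 0.37. The TNFdARE libraries were closer to each other than in the ileum, and neither gene's groups overlapped. The genotype effect in ileum minus that in synovium came to 7.57 ± 2.0 for Acod1 and 5.11 ± 1.25 for Gpr84 on the log2 scale.

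Nos2 differed between the genotypes in the synovium and not beyond its spread in the ileum. It had 631, 449 and 716 CPM in TNFdARE ileum, against 737, 246 and 652 CPM in WT ileum, so that the genotypes overlapped and the log2 fold change was 0.14 ± 0.42. In TNFdARE synovium Nos2 had 200, 182 and 116 CPM, against 5.82, 3.06 and 4.57 CPM in WT synovium. That is a log2 fold change of 5.24 ± 0.32, the largest in synovium among the 8 genes, and every TNFdARE library lay far above every WT library. The ileum effect was lower than the synovium effect by 5.08 ± 0.58 on the log2 scale. The ileum value stood at 0.42 without WT replicate 1 and at -0.21 without WT replicate 2, so that its sign rested on single libraries.

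**Figure D1:**
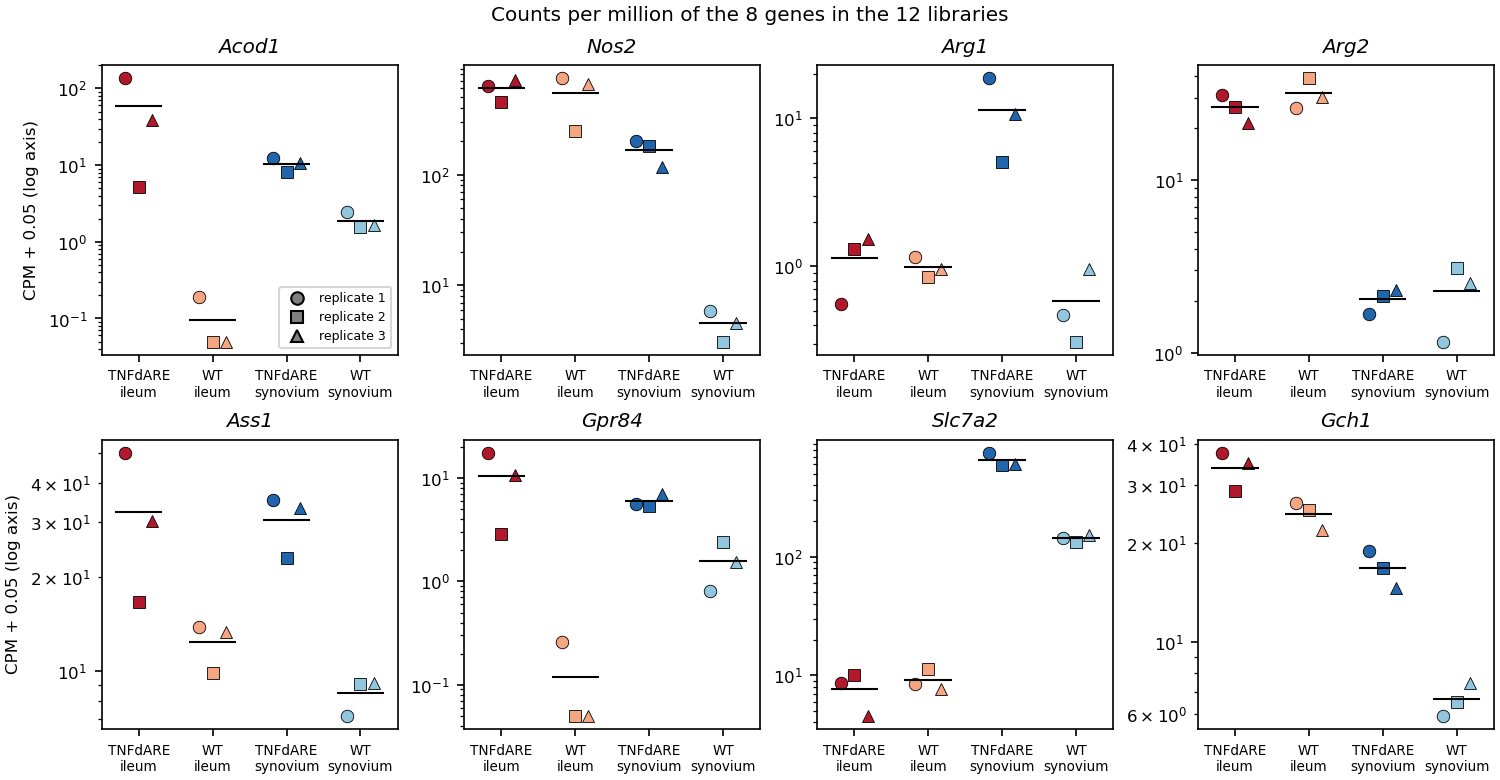
Each panel plots 1 gene in the 12 libraries as CPM plus 0.05 on a log axis, with TNFdARE left of WT in each tissue, marker shapes for replicates 1 to 3 and a line at the group mean. Acod1 and Gpr84 are at or next to the bottom in WT ileum, Nos2 is low in WT synovium alone, and Slc7a2 is high in both synovium groups.

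Gch1, which makes the first intermediate of the Nos2 cofactor, was higher in TNFdARE libraries in both tissues. It had 37.6, 28.8 and 34.9 CPM in TNFdARE ileum, against 26.4, 25.2 and 21.8 CPM in WT ileum (log2 fold change 0.47 ± 0.13). In the synovium it had 18.8, 16.7 and 14.5 CPM in TNFdARE mice, against 5.89, 6.51 and 7.44 CPM in WT mice (1.36 ± 0.15). The groups did not overlap in either tissue, and the effect in ileum minus that in synovium was -0.87 ± 0.2.

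Ass1, the citrulline-recycling enzyme, followed the same direction. It had 50, 16.6 and 30.2 CPM in TNFdARE ileum, against 13.8, 9.78 and 13.3 CPM in WT ileum, a log2 fold change of 1.40 ± 0.41. In TNFdARE synovium it had 35.3, 23 and 33.1 CPM, against 7.13, 9.04 and 9.13 CPM in WT synovium, a log2 fold change of 1.88 ± 0.19. No TNFdARE library overlapped a WT library of its tissue. The lowest TNFdARE library of the ileum was again replicate 2. The effects in the tissues differed by -0.46 ± 0.48 (ileum minus synovium), which is within its SE.

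The arginases parted by tissue. Arg1, the cytosolic enzyme known from liver and from alternatively activated macrophages, had 0.508, 1.27 and 1.47 CPM in TNFdARE ileum, against 1.11, 0.803 and 0.915 CPM in WT ileum (log2 fold change 0.19 ± 0.43). In the synovium it had 18.6, 5.01 and 10.6 CPM in TNFdARE mice, against 0.416, 0.26 and 0.913 CPM in WT mice (4.43 ± 0.66). WT synovium held 4 to 14 counts a library, and the ratio of summed counts was 21.3 (exact 95% interval 14.1 to 33.5). The ileum groups overlapped and the synovium groups did not, with TNFdARE synovium replicate 1 the highest and replicate 2 the lowest.

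Arg2, the mitochondrial enzyme, differed little between genotypes. It had 31, 26.5 and 21.4 CPM in TNFdARE ileum, against 26, 38.7 and 30.3 CPM in WT ileum, and 1.62, 2.07 and 2.26 CPM in TNFdARE synovium, against 1.11, 3.06 and 2.48 CPM in WT synovium. The log2 fold changes were -0.26 ± 0.19 and -0.13 ± 0.39, and the groups overlapped in both tissues. Vti1b, whose exons overlap those of Arg2 on the other strand, had 701 to 923 counts in TNFdARE libraries and 604 to 965 in WT libraries.

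Per exonic length, in length-scaled shares of all transcripts (TPM), the summed level of both arginases was 58.4 ± 10.2 in TNFdARE ileum and 61.7 ± 14.7 in WT ileum (SD, n = 3 each), and 26.1 ± 11.2 in TNFdARE synovium and 7.01 ± 3.04 in WT synovium. Arg1 made up 1.04% to 4.23% of it in TNFdARE ileum and 1.31% to 2.66% in WT ileum. In the synovium the share of Arg1 was 60.8% to 88% in TNFdARE mice, against 5.17% to 19.4% in WT mice. These shares rest on 27 to 39 Arg2 counts a library in TNFdARE synovium and 16 to 47 in WT synovium. Arg2 reads in the overlap with Vti1b cannot be assigned with certainty, which limits the synovium shares, sums and ratios given here. TNFdARE synovium was the 1 group of 4 in which most arginase transcript came from Arg1. Nos2 TPM per arginase TPM ran from 5.31 to 10.4 in TNFdARE ileum and from 2.03 to 8.94 in WT ileum. In TNFdARE synovium it ran from 4.15 to 11.1, against 0.307 to 1.37 in WT synovium, so that both transcripts were higher in TNFdARE synovium and Nos2 by the larger factor.

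**Figure D2:**
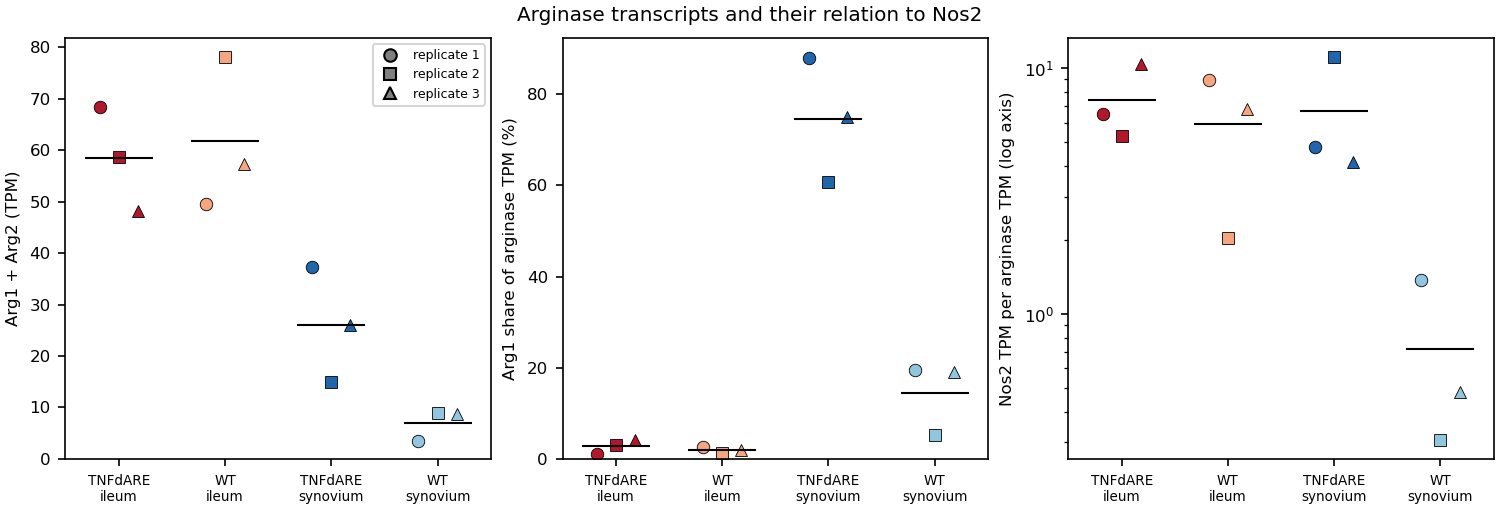
The panels plot, for each of the 12 libraries, the summed TPM of Arg1 and Arg2, the share of Arg1 in it in percent, and Nos2 TPM per arginase TPM on a log axis, with a line at each group mean. The Arg1 share is under 5% in all ileum libraries and 60.8% to 88% in TNFdARE synovium.

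Slc7a2, the arginine transporter, was abundant in the synovium and low in the ileum. It had 755, 590 and 604 CPM in TNFdARE synovium, against 143, 134 and 152 CPM in WT synovium, a log2 fold change of 2.21 ± 0.12. In the ileum it had 8.51, 9.93 and 4.5 CPM in TNFdARE mice, against 8.32, 11.3 and 7.67 CPM in WT mice (-0.25 ± 0.31). The synovium groups were far apart, and the ileum groups overlapped. Its effect in ileum minus that in synovium was -2.43 ± 0.34.

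By the threshold used for all genes, an adjusted p under 0.05, 2 of the 8 genes passed in the ileum, Acod1 and Gpr84, both higher in TNFdARE. Of all 15462 genes tested there, 4.12% passed as higher and 1.57% as lower. Non-overlapping groups were seen for 4 of the 8, all higher, namely Acod1, Gpr84, Ass1 and Gch1, where 18.9% of all genes had higher and 18.4% lower non-overlapping groups. In the synovium 7 of the 8 passed, all but Arg2 and all higher, against 13.1% of 15599 genes passing as higher and 10.7% as lower. The same 7 genes had non-overlapping groups, against 20.7% of all genes with higher and 23.2% with lower ones. Since the genes were picked with these differences known, nothing is read from these counts. The ileum calls of Acod1 and Gpr84 held without TNFdARE replicate 2 (log2 fold changes 10.62 and 7.50), where Ass1 and Gch1 passed too. They were lost without TNFdARE replicate 1 (8.62 and 6.43) or 3 (10.31 and 7.02), and without WT replicate 1 (12.75 and 10.23), 2 (9.57 and 6.53) or 3 (9.55 and 6.51). The 7 synovium calls held without any 1 library. With all 12 libraries in 1 model, Acod1 (2.51) and Gpr84 (1.94) no longer passed in the synovium.

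In the test of unequal effects between the tissues, 6 of the 8 genes passed. Acod1 and Gpr84 were higher in the ileum difference, against 6.8% of 16964 genes, and Nos2, Arg1, Slc7a2 and Gch1 were lower, against 5.28%. This contrast is built from the differences that chose the genes, so it too is a description. Acod1 passed in 2 of the 12 fits that left out 1 library, those without TNFdARE ileum replicate 1 (6.03) or 2 (8.01), and not with no filter on low counts (7.56) or with limma-voom. Over those 12 fits the difference of Gpr84 lay between 4.40 and 8.30. It passed in 5 of them and was lost without TNFdARE ileum replicate 3 (5.08), WT ileum replicate 2 (4.50) or 3 (4.48), TNFdARE synovium replicate 1 (5.05) or 3 (5.23), and WT synovium replicate 2 (4.67) or 3 (5.12). With limma-voom neither Gpr84 (4.90) nor Arg1 (-4.26) passed.

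**Figure D3:**
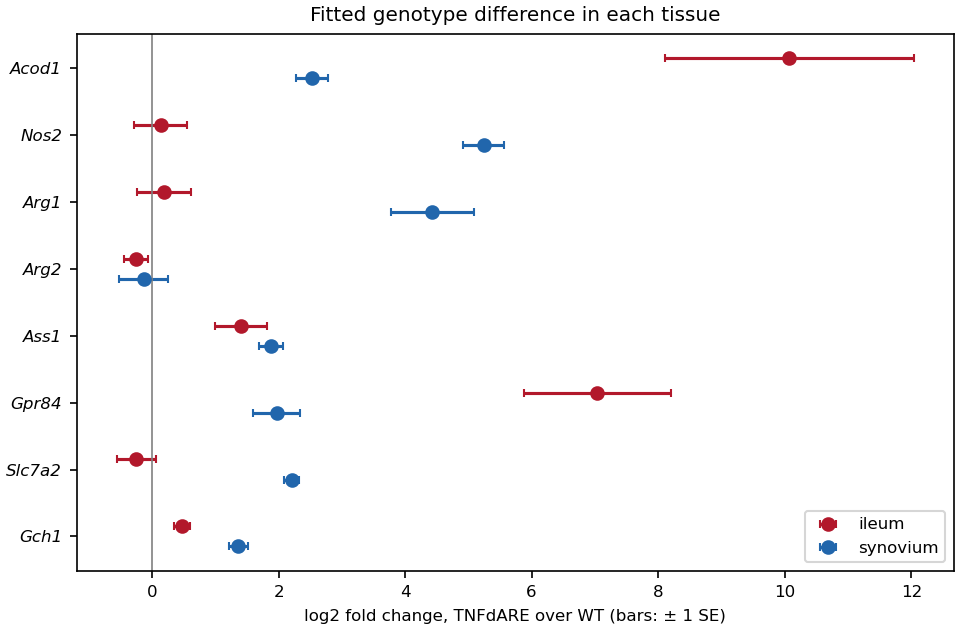
Points give the fitted log2 fold change of TNFdARE over WT for each of the 8 genes in ileum and synovium, with bars of 1 SE. In the ileum Acod1 (10.07) and Gpr84 (7.04) stand apart, and in the synovium Nos2 (5.24) and Arg1 (4.43) lead.

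Sums of macrophage markers were higher in TNFdARE mice in both tissues, as were some of the 8 genes. Nos2, Arg1, Arg2 and Slc7a2 overlapped between the genotypes in the ileum, and Arg2 in the synovium. Of 10 monocyte and macrophage markers 5 rose in the ileum (Csf1r, C1qa, C1qb, C1qc and Lyz2) and 7 in the synovium (these, Adgre1 and Cd68), with median log2 fold changes of 1.98 and 1.19. The sum of the 10 monocyte and macrophage markers was 5380, 1360 and 3170 CPM in TNFdARE ileum replicates 1, 2 and 3, the order seen for Acod1, Gpr84, Ass1 and Gch1, against 440 to 528 CPM in WT ileum. In the synovium it was 5260 to 7120 CPM in TNFdARE mice, against 1880 to 2290 CPM in WT mice. In these bulk samples more cells of a type and more RNA per cell cannot be told apart. A sum of 9 neutrophil markers was 448, 77.4 and 250 CPM in TNFdARE ileum, in the same order of replicates, against 5.35 to 8.73 CPM in WT ileum, with Ngp at 0 in both groups, and 4 of the 5 neutrophil markers tested there rose. None of the 9 passed in the synovium, where the neutrophil sum overlapped between the genotypes, at 1220 to 4740 CPM in TNFdARE mice and 1260 to 3950 CPM in WT mice, and it was highest in replicate 2 of each, where Acod1 and Arg1 were lowest. A sum of 7 markers of alternatively activated macrophages was 64 to 71.1 CPM in TNFdARE ileum, against 29.9 to 40.9 CPM in WT ileum, and 439 to 656 CPM in TNFdARE synovium, against 245 to 433 CPM in WT synovium. Of these markers 2 of 5 tested rose in the ileum, and in the synovium 3 of 7 rose (Mgl2, Ccl17 and Mrc1) and Ccl24 fell. The sum of the 7 was highest in synovium replicate 2, at 656 CPM in TNFdARE and 433 CPM in WT mice. Arg1 was lowest in these same libraries, at 5.01 and 0.26 CPM. The sum of 6 fibroblast markers was 1410 to 1590 CPM in TNFdARE ileum, against 867 to 999 CPM in WT ileum, and 4 of the 6 rose there (Col1a1, Col1a2, Dcn and Lum). In the synovium the fibroblast sums overlapped, at 40900 to 44300 CPM in TNFdARE mice and 38500 to 78600 CPM in WT mice, and Lum and Thy1 rose. Absorptive enterocyte markers summed to 6530 to 13000 CPM in TNFdARE ileum, against 17200 to 18500 CPM in WT ileum, and were lowest in TNFdARE replicate 1. None of the 7 enterocyte markers tested there passed. The part of these cell types in the differences of the 8 genes was not tested.

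The differences between tissues were not the contrast that chose the genes, but the same libraries, WT and TNFdARE, entered that choice, so these p-values are not independent of it. In WT mice, Nos2 was 122-fold higher in ileum than in synovium (545 ± 263 CPM in WT ileum and 4.48 ± 1.38 CPM in WT synovium, SD, n = 3 each), a log2 fold change of 6.93 ± 0.5 (edgeR, adjusted p = 4.02e-07). Arg2 was 14.2-fold higher in WT ileum (31.7 ± 6.45 CPM, against 2.22 ± 1 CPM in WT synovium, adjusted p = 7.59e-07). Gch1 was 3.69-fold higher in WT ileum (24.5 ± 2.38 CPM, against 6.61 ± 0.779 CPM in WT synovium, adjusted p = 5.3e-07). Slc7a2 was 15.7-fold lower in WT ileum (9.1 ± 1.94 CPM, against 143 ± 9.14 CPM in WT synovium, adjusted p = 1.32e-07). WT ileum thus held more Nos2, Arg2 and Gch1 transcript, and WT synovium more Slc7a2.

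Acod1 and Gpr84 were lower in WT ileum than in WT synovium. The ratio of summed counts was 0.026 for Acod1 (exact 95% interval 0.0031 to 0.0969, adjusted p = 0.0373) and 0.0457 for Gpr84 (0.0092 to 0.139, adjusted p = 0.0043). Acod1 lost this call without any 1 of the 6 WT libraries: the log2 difference was -5.05 with all of them, and without 1 of them it lay between -7.80 (WT ileum replicate 1 left out, adjusted p = 0.0741) and -4.51 (WT ileum replicate 3 left out, adjusted p = 0.0919). The adjusted p was 0.0908 without WT ileum replicate 2, and 0.0822, 0.0571 and 0.0575 without WT synovium replicates 1, 2 and 3. Arg1 (0.82 ± 0.65, adjusted p = 0.271) and Ass1 (0.54 ± 0.35, adjusted p = 0.179) did not pass. Passing in this comparison was common, at 36.0% of all genes higher and 38.2% lower in WT ileum, beside 3 and 3 of the 8.

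Between the tissues of TNFdARE mice, Acod1 stood the other way than in WT mice. Acod1 was higher in TNFdARE ileum (59.7 ± 67.7 CPM) than in TNFdARE synovium (10.4 ± 2.27 CPM), with overlapping libraries and a log2 difference of 2.52 ± 0.82 (adjusted p = 0.0186). That call rested on TNFdARE ileum replicate 1, without which the difference was 0.99 (adjusted p = 0.17), and it was also lost without TNFdARE synovium replicate 2 (2.36, adjusted p = 0.0631) or 3 (2.54, adjusted p = 0.0508). Gpr84 (0.81 ± 0.58, adjusted p = 0.242) did not pass, except without TNFdARE ileum replicate 2 (1.18, adjusted p = 0.0307). Arg1 was 10.5-fold lower in TNFdARE ileum (1.08 ± 0.509 CPM, against 11.4 ± 6.82 CPM in TNFdARE synovium, adjusted p = 0.000221).

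Nos2 remained higher in TNFdARE ileum, by 3.6-fold (598 ± 137 CPM, against 166 ± 44.3 CPM in TNFdARE synovium, adjusted p = 0.00157). Arg2 was 13.2-fold higher (26.3 ± 4.78 CPM in TNFdARE ileum and 1.98 ± 0.33 CPM in TNFdARE synovium, adjusted p = 1.23e-06) and Gch1 2.02-fold higher (33.8 ± 4.51 and 16.7 ± 2.14 CPM, adjusted p = 6.54e-05). Slc7a2 was 84.8-fold lower in TNFdARE ileum (7.64 ± 2.82 CPM, against 650 ± 91.3 CPM in TNFdARE synovium, adjusted p = 8.95e-09). Ass1 was at 32.3 ± 16.8 CPM in TNFdARE ileum and 30.5 ± 6.58 CPM in TNFdARE synovium, a log2 difference of 0.08 ± 0.33 (adjusted p = 0.835). Of all genes 35.0% passed as higher and 31.6% as lower here, beside 4 and 2 of the 8.

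Set in order of TPM within each group, Nos2 led in the ileum, at a mean of 419 TPM in TNFdARE and 331 TPM in WT mice, and Slc7a2 led in the synovium, at 287 TPM in TNFdARE and 60.6 TPM in WT mice. Acod1 was second in TNFdARE ileum (70.7 TPM) and last of the 8 in WT ileum (0.0467 TPM). In TNFdARE synovium Nos2 (152 TPM), Ass1 (50.9 TPM), Arg1 (20.5 TPM) and Acod1 (16 TPM) came after Slc7a2, and Arg2 was last (5.62 TPM). In WT synovium Ass1 (13.6 TPM) and Arg2 (6.08 TPM) followed Slc7a2, Nos2 stood at 3.9 TPM, and Arg1 was last (0.93 TPM).

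Across the 4 groups, the order of mean CPM for Acod1 and Gpr84 was TNFdARE ileum, TNFdARE synovium, WT synovium, WT ileum, and their libraries overlapped between the first and the second of these groups alone. For Gch1 the order was TNFdARE ileum, WT ileum, TNFdARE synovium, WT synovium, with no overlap between neighbours. Nos2 had the same order as Gch1, with overlap within the ileum. For Slc7a2 it was TNFdARE synovium, WT synovium, WT ileum, TNFdARE ileum, with overlap within the ileum. Arg1 was highest in TNFdARE synovium, and its other 3 groups overlapped in turn. Arg2 was highest in the ileum groups, which overlapped, as did the synovium groups below them. Ass1 was highest in the TNFdARE groups of both tissues, which overlapped, then came WT ileum and WT synovium without overlap.

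The genes whose log2 CPM was most like each of the 8 over the 12 libraries, by Pearson r among 15246 genes, are given as a description, since the 12 libraries fall into 4 groups and share those differences. Acod1 was nearest to Mefv (0.986), Bcl2a1b (0.981) and Il1b (0.98), and Gpr84 to Csf2rb (0.989), Adgre4 (0.985) and Mpeg1 (0.979). Nos2 was nearest to Hopx (0.984), Mtmr7 (0.982) and Sdcbp (0.977), and Gch1 to Relb (0.993), Ifngr1 (0.989) and Bcl3 (0.986). Arg1 was nearest to St18 (0.956), Dclk1 (0.95) and C1qtnf3 (0.948), and Arg2 to Vrk3 (0.995), Avl9 (0.993) and Krtcap3 (0.992). Ass1 was nearest to Zmynd15 (0.968), Cxcl16 (0.967) and Ctsc (0.966), and Slc7a2 to Lrrc15 (0.993), Col5a3 (0.992) and Ift74 (0.991). Among the 8 themselves, Acod1 and Gpr84 had an r of 0.97, Nos2 and Gch1 of 0.96, and Arg2 and Slc7a2 of -0.93.

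Beyond the 8 genes, 109 others of the same pathways were placed in 10 lists, and 108 of them had a row in the table. In the ileum 4 of 102 tested rose and 4 fell, or 3.92% each, against 4.12% and 1.57% of all genes. In the synovium 21 of 96 rose and 10 fell, or 21.9% and 10.4%, against 13.1% and 10.7% of all genes. These 31 calls come from the fit without a replicate block, and with it 40 passed. All 8 ileum calls were lost without TNFdARE replicate 3 (adjusted p = 0.155 to 0.171) or without any 1 WT replicate (0.15 to 0.178). Without TNFdARE replicate 1 there were 4 calls, and without replicate 2 there were 53.

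Asl, which completes the return of citrulline to arginine that Ass1 begins, rose in both tissues. It had 34.9, 33.4 and 32.4 CPM in TNFdARE ileum, against 26.9, 25.8 and 25.2 CPM in WT ileum (log2 fold change 0.38 ± 0.08, adjusted p = 0.0459). In the synovium it had 19.2, 21.8 and 19.4 CPM in TNFdARE mice, against 16.2, 16.3 and 15.7 CPM in WT mice (0.36 ± 0.1, adjusted p = 0.0357), a call that was lost without any 1 synovium library (adjusted p = 0.0609 to 0.103). Slc25a15, the mitochondrial ornithine carrier, fell in the ileum (80.7 CPM in TNFdARE and 160 CPM in WT mice, -0.98 ± 0.19, adjusted p = 0.045). Of the citrulline and urea cycle list, 1 of 6 rose and 1 fell in the ileum, and 1 of 3 rose in the synovium.

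Among 18 genes of ornithine, polyamine, proline and creatine synthesis, 1 rose in each tissue. In the ileum it was Gatm, which takes arginine into creatine synthesis (18.9 CPM in TNFdARE and 7.73 CPM in WT mice, 1.30 ± 0.26, adjusted p = 0.0449). In the synovium it was Azin2, a regulator of polyamine synthesis, with 38.9, 29.3 and 29.4 CPM in TNFdARE mice, against 13.2, 12.9 and 12 CPM in WT mice (1.38 ± 0.13, adjusted p = 0.000903). Of the other cationic amino acid transporters, none of 7 passed in the ileum, where the most abundant, Slc6a14, was at 388 CPM in TNFdARE and 457 CPM in WT mice. In the synovium 1 of 6 rose, the transporter Slc7a7 (29.4 CPM in TNFdARE and 14.9 CPM in WT mice, 1.00 ± 0.14, adjusted p = 0.00351).

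The 11 other nitric oxide synthase and tetrahydrobiopterin genes held 1 call. Nostrin, a regulator of the endothelial synthase, rose in the synovium to 8.87, 8.35 and 8.86 CPM in TNFdARE mice, against 5.06, 5.01 and 4.76 CPM in WT mice (0.84 ± 0.14, adjusted p = 0.00592). It was at 112 CPM in both genotypes of the ileum. Neither Ddah1 nor Ddah2, which remove methylarginine inhibitors of nitric oxide synthases, passed in either tissue. Ddah1 was at 74.4 CPM in TNFdARE ileum and 107 CPM in WT ileum (-0.52 ± 0.19, adjusted p = 0.126), and it passed without TNFdARE ileum replicate 2 (-0.75, adjusted p = 0.00135). Its synovium difference went the other way, at 16.4 CPM in TNFdARE and 8.3 CPM in WT mice with overlap (1.01 ± 0.39, adjusted p = 0.113). The effect in ileum minus that in synovium was -1.50 ± 0.46 for Ddah1 (adjusted p = 0.0577). Ddah2 was at 41.7 CPM in TNFdARE synovium and 45.4 CPM in WT synovium (-0.09 ± 0.08, adjusted p = 0.43).

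Genes on the receptor side of nitric oxide fell in the synovium. Of 6 genes for soluble guanylate cyclase and cGMP signalling, 5 fell there, with a median log2 fold change of -0.72 against 0.0 over all genes tested, and none of the 6 passed in the ileum (median -0.15). Prkg1, a cGMP-dependent kinase, had 5.87, 8.06 and 6.43 CPM in TNFdARE synovium, against 15, 14.8 and 14.7 CPM in WT synovium (-1.10 ± 0.15, adjusted p = 0.00311). Gucy1a1, a cyclase subunit, had 34.6, 42.9 and 31.1 CPM in TNFdARE synovium, against 72.9, 73 and 57.8 CPM in WT synovium (-0.88 ± 0.14, adjusted p = 0.0062). In TNFdARE synovium 1 of 6 skeletal muscle, 3 of 5 endothelial and 4 of 4 adipocyte markers fell. The endothelial sum was 549 to 679 CPM there, against 711 to 781 CPM in WT synovium, and the adipocyte sum 441 to 792 CPM, against 1200 to 1420 CPM. Their part in these falls was not tested.

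Of the genes that supply aconitate, handle succinate or break itaconate down, few passed. In the synovium 3 of 19 fell and none rose, among them Sdha, a subunit of succinate dehydrogenase (207 CPM in TNFdARE and 267 CPM in WT mice, -0.34 ± 0.08, adjusted p = 0.0262). In the ileum 2 of 19 fell, the dicarboxylate carrier Slc25a10 (111 CPM in TNFdARE and 157 CPM in WT mice, -0.50 ± 0.09, adjusted p = 0.0412) and citrate synthase Cs (543 and 754 CPM, -0.47 ± 0.1, adjusted p = 0.0459). Sdha lost its synovium call without TNFdARE replicate 1, 2 or 3 (adjusted p = 0.0576, 0.06 and 0.0863) or WT replicate 1 or 3 (0.058 and 0.069).

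Of 12 genes listed because they are studied with itaconate, Nrf2 or Atf3, 6 rose in the synovium and none fell. They were Nlrp3, Slc7a11, Nfkbiz, Txnrd1, Nfe2l2 and Gclm. The list mixes genes of unlike roles, so this count is not read as 1 programme rising. Slc7a11, the cystine transporter, had 16.5, 8.7 and 9.5 CPM in TNFdARE synovium, against 3.53, 2.41 and 2.87 CPM in WT synovium (2.00 ± 0.29, adjusted p = 0.00415). Nlrp3, an inflammasome sensor, had 16.7, 14.9 and 14.6 CPM there, against 6.51, 8.52 and 8.22 CPM in WT synovium (1.01 ± 0.14, adjusted p = 0.00361). With all 12 libraries in 1 model neither passed there (adjusted p = 0.075 for Slc7a11 and 0.205 for Nlrp3). In the ileum none rose and Srxn1, an antioxidant enzyme, fell (260 CPM in TNFdARE and 361 CPM in WT mice, -0.47 ± 0.08, adjusted p = 0.0404). Slc7a11 had 81.3, 6.69 and 30.6 CPM in TNFdARE ileum, against 2.36, 2.77 and 4.29 CPM in WT ileum, with no overlap but an adjusted p of 0.0698. Nlrp3 had 26.5, 3.24 and 15.2 CPM in TNFdARE ileum, against 0.901, 1.17 and 0.774 CPM in WT ileum (adjusted p = 0.0511). Both had the replicate order of Acod1 in TNFdARE ileum.

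Of the receptors for fatty acids and related metabolites other than Gpr84, 2 of 6 rose in the ileum. Ffar2, a receptor for short-chain fatty acids, had 16.5, 14.1 and 19.1 CPM in TNFdARE ileum, against 6.86, 7.95 and 8.58 CPM in WT ileum (1.09 ± 0.16, adjusted p = 0.0404). Hcar2, the niacin and hydroxybutyrate receptor, had 7.94, 2.25 and 3.72 CPM in TNFdARE ileum, against 0.693, 0.657 and 0.563 CPM in WT ileum (2.86 ± 0.53, adjusted p = 0.0412). In the synovium 2 of 5 fell. Ffar1, a receptor for long-chain fatty acids, had 0.3, 0.691 and 0.869 CPM in TNFdARE synovium, against 2.22, 3.38 and 4.24 CPM in WT synovium (-2.36 ± 0.43, adjusted p = 0.0094). Hcar1, the lactate receptor, was at 7.79 CPM in TNFdARE synovium and 13.8 CPM in WT synovium (-0.79 ± 0.21, adjusted p = 0.0357), a call lost without TNFdARE replicate 1, 2 or 3 (adjusted p = 0.0816, 0.0663 and 0.113) or WT replicate 2 or 3 (0.0584 and 0.084).

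Upstream receptors and transcription factors of macrophage activation gave the largest count. In the synovium 11 of 15 rose and none fell, with a median log2 fold change of 0.52 against 0.0 over all genes tested. Tlr2, a receptor for bacterial lipoproteins, had 268, 213 and 214 CPM in TNFdARE synovium, against 27.4, 33.6 and 30.3 CPM in WT synovium (2.96 ± 0.12, adjusted p = 6.47e-05). Cd14, a co-receptor for lipopolysaccharide that macrophages carry, was at 103 CPM in TNFdARE and 21.2 CPM in WT synovium (2.31 ± 0.2, adjusted p = 0.000962). In the ileum the median was 0.52 as well and none of 15 passed. Tlr2 had 78.6, 16.9 and 41 CPM in TNFdARE ileum, against 14.8, 13 and 12.2 CPM in WT ileum (1.78 ± 0.54, adjusted p = 0.0945), and Irf1, the most abundant of the list, was at 370 CPM in TNFdARE mice and 292 CPM in WT mice (0.35 ± 0.26, adjusted p = 0.393).

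**Figure D4:**
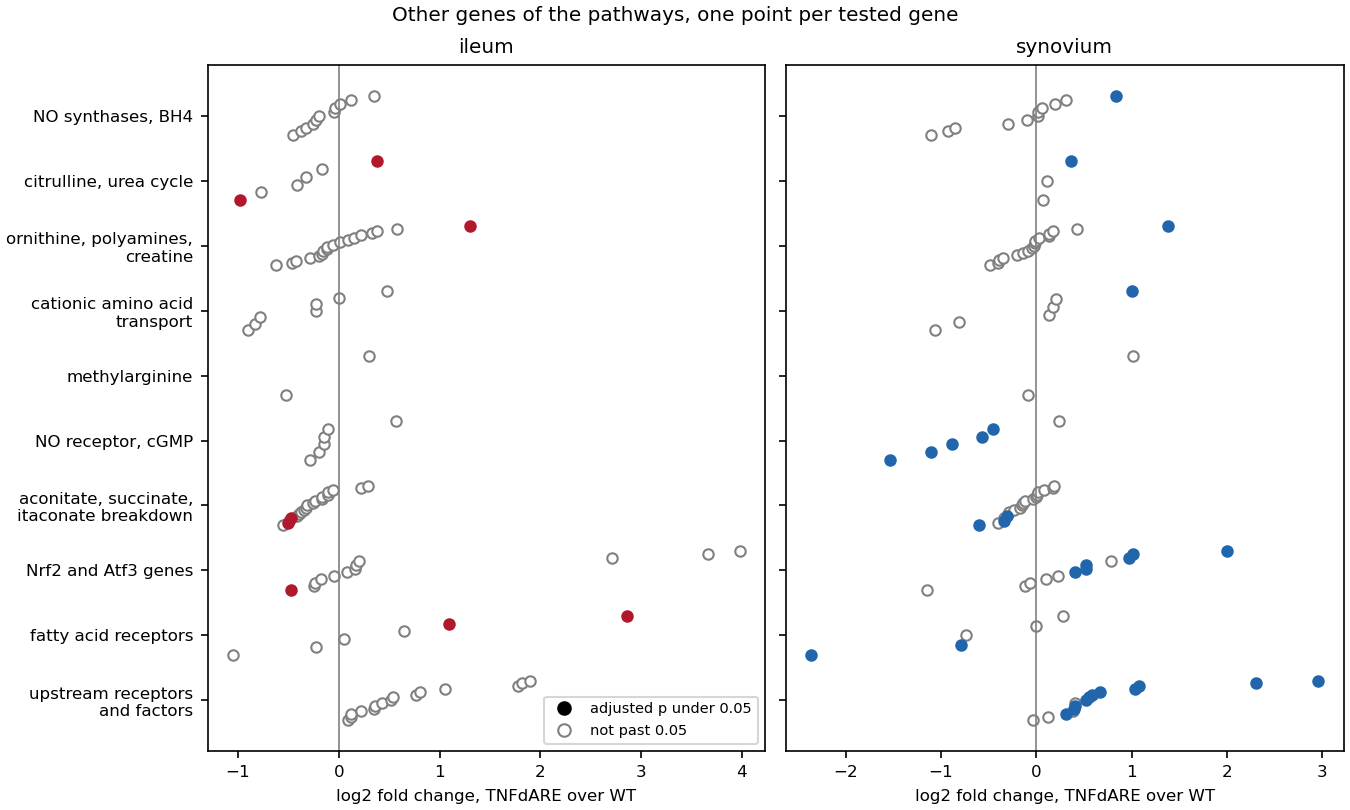
Each point is 1 tested gene of the 10 pathway lists, placed by its log2 fold change of TNFdARE over WT in ileum and in synovium, and filled where its adjusted p was under 0.05. In the synovium the guanylate cyclase list lies left of 0 in 5 filled points, and 11 upstream receptors and factors lie right of 0.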

How the data were processed

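Poly-A RNA of 3 TNFdARE and 3 WT samples from each of ileum and synovium was sequenced as stranded libraries. Values deposited by the authors were raw counts for Ensembl genes and, for 17046 genes, FPKM. Per the submitters' processing notes, cutadapt 1.15, Bowtie2 2.3.3.1 and GRCm38 were used; how reads were counted, and whether by strand, is not given in the sources used here. None of the deposited FPKM values is 0, although 5756 of them belong to a count of 0, so the counts were tested and the FPKM served as an alternative.

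Gene names and lengths came from GENCODE on GRCm38, which matched 98.9% of identifiers. Each tissue was fitted on its 6 libraries in R 4.3.3 with edgeR 4.0.16 (filterByExpr, TMM, robust quasi-likelihood F test, two-sided, Benjamini-Hochberg over all genes tested, threshold 0.05). Comparisons between tissues, and of the effects between tissues, used 1 model of the 4 groups over 12 libraries. Adjusted p-values come from edgeR unless another tool is named. TPM used the exonic length of each gene. The procedure was tested on simulated data.

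The 8 genes, the lists and the rules were chosen with earlier results of these data known. The rule for other genes named the 2 called genes with the smallest adjusted p in each direction, list and tissue, or the most abundant of a list with none called, and the 3 genes most like each of the 8. A few genes named by that rule in 1 tissue are also given in the other, and not every gene it named is reported here. Alternatives were RLE factors, library size only, no filter, DESeq2 1.42.0, limma-voom (limma 3.58.1), a replicate block, 12 libraries in 1 model, limma on log2(FPKM + 1) and log2(FPKM + 0.1), the longest transcript as length, and leaving out each library.

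Deviations from group means over 10542 genes correlated between equal replicate numbers of TNFdARE and WT at 0.455, 0.294 and 0.178 in the synovium. Unequal numbers correlated there at -0.424 to 0.162, the highest being TNFdARE replicate 3 with WT replicate 2. Equal numbers stood above unequal ones in the synovium by a narrow margin, so they may be pairs there, which rests on the data alone. The values given come from the fit without the block, and the fit with it is an alternative. In the ileum equal numbers correlated at 0.249, 0.256 and 0.088 and unequal ones at -0.282 to 0.147. These overlapped, and no pairing was read from them. Sample titles call the replicates biological, but nothing says that they are separate animals, so p-values measure the spread between these samples. Replicates of a group differed by 10.5 to 86.2 chi-square units a gene, far above sampling noise, so each library counted as 1 sample. The sequences of 4 promoters are from RefSeq (GRCm38.p6).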

Additional observations from a re-analysis of the deposited data

Results flagged for a closer look

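For 9 of the other pathway genes that are named above, the genotype effect differed between the tissues by the edgeR test of the difference itself (ileum minus synovium, log2, adjusted over all genes; the median over all genes was 0.08). The comparison is of 4 groups of 3 libraries, and no explanation was tested.

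Slc7a7, which carries cationic amino acids out of epithelial cells, was lower in TNFdARE ileum (123 CPM, against 218 CPM in WT ileum) and higher in TNFdARE synovium (29.4 CPM, against 14.9 CPM in WT synovium), and its groups overlapped in neither tissue. The synovium change passed and the ileum change did not (adjusted p = 0.0581). The difference was -1.81 ± 0.26 (adjusted p = 0.00328) and passed without any 1 library. Slc25a15 differed by -1.07 ± 0.23 (adjusted p = 0.0172), with a fall in the ileum and overlap in the synovium. In TNFdARE ileum replicates 1, 2 and 3 Slc7a7 had 86.7, 154 and 127 CPM and Slc25a15 had 60.1, 105 and 77 CPM. The sum of absorptive enterocyte markers had the same order in these libraries, at 6530, 13000 and 9170 CPM. The part of enterocytes in these differences was not tested. Nostrin differed by -0.81 ± 0.11 (adjusted p = 0.0026), with an increase in the synovium alone passing.

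Hcar2 differed by 2.88 ± 0.58 (adjusted p = 0.0134): it was at 4.64 CPM in TNFdARE ileum, against 0.638 CPM in WT ileum, and at 4.49 CPM in TNFdARE synovium, against 4.57 CPM in WT synovium. Ffar1 differed by 3.03 ± 0.57 (adjusted p = 0.0095), with 32 to 69 counts in TNFdARE ileum, 21 to 33 in WT ileum, 5 to 15 in TNFdARE synovium and 32 to 65 in WT synovium. Ffar2 differed by 1.86 ± 0.42 (adjusted p = 0.0206) and did not pass without TNFdARE ileum replicate 3 (0.0525), WT ileum replicate 1 (0.0588) or 2 (0.0506), or TNFdARE synovium replicate 3 (0.0522).

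Prkg1 differed by 0.98 ± 0.23 (adjusted p = 0.0234), with 7 of 12 left-out libraries ending the call (TNFdARE ileum 3, 0.0536; WT ileum 1, 2 and 3, 0.0818, 0.0513 and 0.0677; TNFdARE synovium 3, 0.0604; WT synovium 1 and 3, 0.063 and 0.0513). Gatm differed by 1.19 ± 0.33 (adjusted p = 0.0418) and passed in 2 of 12 fits without 1 library (adjusted p up to 0.101). Nlrp3 differed by 2.99 ± 0.81 (adjusted p = 0.0402) and passed in 1 of 12, the fit without TNFdARE ileum replicate 2 (0.000241). With the replicate block Nlrp3 did not pass (adjusted p = 0.0599).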

How the results depend on the processing

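The synovium and tissue results moved little, and the ileum genotype results moved much. In the ileum 879 genes passed, and 1379 did with library size only (88.3% of calls higher, against 72.5% with TMM, for a shift of 0.11 in the median log2 fold change), 2715 with DESeq2, 2722 with 12 libraries in 1 model, and 0 with limma-voom or either FPKM fit. Leaving out 1 library gave 0 to 4633 calls. Of the 8 genes 2 passed in the ileum, 4 with DESeq2 or 12 libraries, 0 with no filter, limma-voom or either FPKM fit, and 0 to 4 without 1 library. Of the pathway genes 8 passed there, 31 with DESeq2, 25 with 12 libraries, 0 with limma-voom or either FPKM fit, and 0 to 53 without 1 library. In the synovium 3713 genes passed, 2141 to 2927 without 1 library, and the 8 genes gave 7 calls throughout, except 5 with 12 libraries. Pathway genes gave 31, and 23 to 26 without 1 library. For the difference of effects 2050 genes passed, 3193 with DESeq2 and 1015 to 3506 without 1 library, and 16 pathway genes, 9 to 31 without 1 library; 56.3% of calls were higher with TMM, 47.6% with RLE factors and 68.8% with library size only (median log2 shifts of 0.08, 0.02 and 0.15). Between WT tissues library size only moved the median to -0.17. Replicate block: in the ileum, where no pairing was read from the numbers, 1128 genes, 3 of the 8 genes and 6 pathway genes passed. In the synovium 4842 genes, 7 of the 8 genes and 40 pathway genes passed with the block. The third of the 8 genes in the ileum was Ass1. Of the named genes the block ended the ileum calls of Asl (adjusted p = 0.0581) and Cs (0.0661) and the difference of effects of Nlrp3 (0.0599) and no other. With library size only Cs did not pass in the ileum (0.0531). No call reversed. The cause of these moves was not tested.

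Between WT tissues Acod1 did not pass with no filter (adjusted p = 0.0982) or limma-voom (0.366), and between TNFdARE tissues it did not with no filter (0.056) or limma-voom (0.217). With the longest transcript as length, Nos2 per arginase TPM averaged 7.68 in TNFdARE ileum, 6.17 in WT ileum, 5.2 in TNFdARE synovium and 0.696 in WT synovium. With 2 to 3 counts in all of WT ileum, depth limits how large the ileum difference of Acod1 and Gpr84 can be said to be.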
